A study of Mus musculus with 19 samples.

Results

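The comparison described here is the response of IDH2-FLT3 leukemic cells to AG-221, less the response of TET2-FLT3 leukemic cells to 5-Aza. It was read gene by gene from RNA-seq counts of sorted mouse cells. It compared 15 of the 19 libraries of the study. All 19 entered the filter on low counts, the scaling and the estimate of spread. Of 33862 RefSeq accessions, 11830 passed that filter and were tested. Cells were labelled lin-Sca+cKit+ (the LSK gate of stem and multipotent progenitor cells), came from C57BL/6 mice and were not cultured. The IDH2-FLT3 line was Idh2 R140Q;Flt3-ITD with acute myeloid leukemia, given vehicle (3 libraries, V3, V3-2 and V9) or AG-221 (4 libraries, AG1, AG8, AG12 and AG13). The TET2-FLT3 line was labelled Tet2-/-;Flt3-IDT, also with leukemia, given vehicle (4 libraries, V1, V5, V5-2 and V19) or 5-Aza (4 libraries, AZ10, AZ11, AZ16 and AZ17). All 15 libraries thus carry a Flt3 internal tandem duplication. The 4 untreated wild-type libraries were part of the fit, and their levels are given as background. Gavage with AG-221 went on for 4 to 5 weeks with 2 doses daily, of 100 mg/kg as a single agent or 40 mg/kg when combined, and the labels do not say which library had which dose. The 5-Aza mice went through 4 cycles of 21 days, with 5 mg/kg injected on 5 days per cycle, and decitabine is named beside 5-Azacytidine in the series text. No group had the other line's drug, so line, drug, route, duration and the state of each line before treatment cannot be told apart. Values below are counts per 1000000 counts of a library (CPM) in the library order just given.

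AG-221 (enasidenib) inhibits mutant IDH2, an enzyme that makes an oncometabolite which blocks the TET family of dioxygenases. TET2 oxidises methylcytosine in DNA, so loss of TET2 and mutation of IDH2 both leave DNA more methylated, and 5-azacytidine lowers methylation by trapping DNA methyltransferases. Inhibitors of DNA methyltransferases are known to raise interferon-stimulated genes in several tumour cell types, and AG-221 is known as a differentiation agent in IDH2-mutant leukemia.

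The leukemic libraries held 9635795 to 20383132 counts, with 12088 to 15509 accessions detected. Within groups, log2 CPM correlated at 0.918 to 0.958 in IDH2-FLT3 vehicle, 0.948 to 0.976 with AG-221, 0.883 to 0.956 in vehicle of the TET2-FLT3 line and 0.973 to 0.986 with 5-Aza. Some pairs across lines were closer than that: V9 with V5 at 0.985, and AG1 with V19 at 0.978. V3-2 and V5-2, of different lines, correlated at 0.951. No pair agreed within sampling noise, since the lowest chi-square per accession was 20.2. Ifi44l kept the lines apart in every library, at 0 to 0.403 CPM in the 7 libraries of the IDH2-FLT3 line and 16.9 to 172 in the 8 of the TET2-FLT3 line. The gate could not be checked by its own markers. Kit had at most 0.101 CPM and Ly6a 0 in the leukemic libraries, both have several accessions in the table, and why they were near 0 was not tested. Cd34 read 2.32 to 30.2 CPM. The labels do not say whether libraries of a group came from separate animals, so p-values measure the spread between libraries, which may in part be technical. By their names V3 and V3-2, and V5 and V5-2, could be repeat libraries of 1 animal, which would leave 2 animals in IDH2-FLT3 vehicle and 3 in the other vehicle group. V3 and V3-2 correlated at 0.942 and V3 and V9 at 0.958, and V5 and V5-2 at 0.945 and V5 and V19 at 0.956. With each such pair summed, the AG-221 response below held 197 calls in place of 1145, and the difference 14 in place of 27.

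With all libraries fitted, the response to AG-221 was the broader one. With edgeR's quasi-likelihood test and a Benjamini-Hochberg adjusted p under 0.05, AG-221 changed 1145 accessions (9.68%), 519 higher (4.39%) and 626 lower (5.29%) than vehicle. On the log2(FPKM + 1) scale the split was 924 higher and 312 lower, so the balance of directions depended on the scale. 5-Aza changed 222 (1.88%), 51 higher (0.431%) and 171 lower (1.45%). The median absolute log2 fold change was 0.62 for AG-221 and 0.36 for 5-Aza, with median standard errors of 0.43 and 0.39. The responses share no library. Both vehicle groups, and neither treated group, hold a -2 library, and V3-2 and V5-2 correlated at 0.951 across lines. Whether this adds to the agreement of the responses was not tested. Across the 11830 accessions, which are not independent replicates, log2 fold changes correlated at a Pearson r of 0.323 and a Spearman rho of 0.333, and 60.7% had the same sign. Of the 1145 accessions called for AG-221, 878 (76.7%) had the same sign with 5-Aza, and of the 222 called for 5-Aza, 182 (82.0%) had the same sign with AG-221. The AG-221 count rested on single libraries: it was 97 without V3, 110 without V3-2, 572 without AG12, 600 without AG1, 658 without AG13, 748 without AG8, 1906 without V1, 1915 without V5-2 and 2252 without V9. The 5-Aza count was 57 without AZ16, 81 without AZ10, 133 without AZ17, 135 without V5 and 143 without AZ11. The order of the responses turned without V3, with 97 calls for AG-221 and 220 for 5-Aza. Without V3-2 it turned as well, with 110 and 255. With each -2 library summed with its namesake the counts were 197 and 154.

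**Figure D1:**
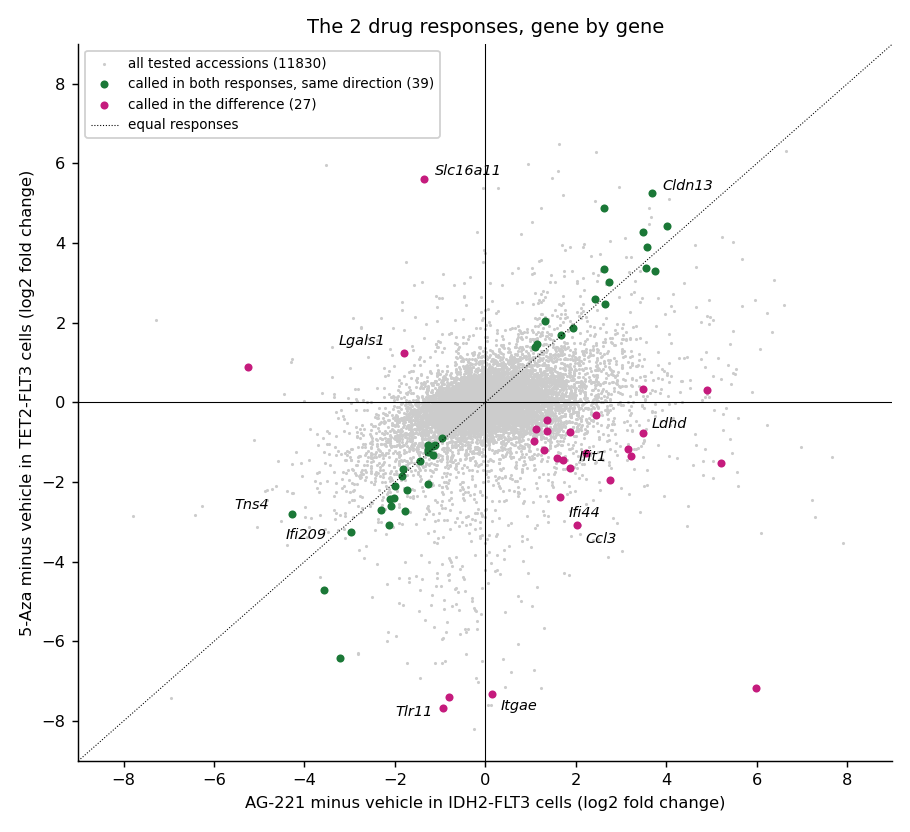
Each point is 1 of 11830 tested accessions, with the log2 fold change for AG-221 on the x axis and for 5-Aza on the y axis, and the dotted line marks equal responses. The 39 accessions called in both responses in 1 direction (green) lie near that line, and the 27 called in the difference (magenta) lie below it, except Lgals1, Slc16a11 and Cdr2, which lie above it.

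The difference between the responses passed the test for 27 accessions (0.228%). In 24 of them (0.203%) the AG-221 response was the higher one, and in 3 (0.0254%) the 5-Aza response was. At an unadjusted p under 0.05 the difference held 1831 (15.5%), and its median standard error was 0.58 on the log2 scale. Among the 24, 17 were called for AG-221 alone, 3 for 5-Aza alone and 4 for both, and in 20 the fold changes had opposite signs. Of the 27, 21 have established names and 6 carry predicted-gene names. Among the named genes the differences ranged from 1.79 for Gbp2 to 7.45 for Itgae in size. Adjusted p over the 27 ran from 0.014 to 0.0463, and the next accession, Xcr1, had 0.0521. In 21 of the 27 the treated groups lay closer to each other than the vehicle groups did, against 62.2% of all tested accessions. Both this share and the difference rest on the same vehicle libraries.

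The 21 named genes kept the direction of their difference in all 544 alternatives run, but not their calls. Without V3-2 edgeR called 0 (1557 at an unadjusted p under 0.05), without V3 it was 1 (Ifit1), and with the leukemic libraries fitted alone it was 0 (1390 unadjusted). It was 9 without AZ16, 12 without AZ10, 16 without AZ11, 61 without AG1, 229 without V5-2 and 644 without V9. DESeq2 called 364 accessions (3.08%) and limma-voom 92.

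Of the gene lists examined, the interferon-stimulated one held the most calls of the difference. These genes are switched on by interferons, and many of their promoters are known to hold repeats of GAAA. Promoters are printed for 4 of the 5 members called in the difference, and each of these 4 holds the repeat marked below. The other member, Ifi44, was called in opposite directions with the drugs. It is not printed and is not among the genes listed below with a match. Each run is the 250 bases before the RefSeq start in GRCm38.p6, on the gene's strand. Capitals mark GAAA, any 2 bases and GAAA, or the reverse complement, TTTC, any 2 bases and TTTC.

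Ifit1, chr19:34640639-34640888 (+): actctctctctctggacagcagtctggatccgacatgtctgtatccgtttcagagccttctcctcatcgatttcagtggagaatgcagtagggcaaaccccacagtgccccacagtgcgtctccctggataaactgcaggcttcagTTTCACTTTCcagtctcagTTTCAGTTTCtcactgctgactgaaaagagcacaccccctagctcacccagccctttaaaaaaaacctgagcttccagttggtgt
Rsad2, chr12:26456453-26456702 (-): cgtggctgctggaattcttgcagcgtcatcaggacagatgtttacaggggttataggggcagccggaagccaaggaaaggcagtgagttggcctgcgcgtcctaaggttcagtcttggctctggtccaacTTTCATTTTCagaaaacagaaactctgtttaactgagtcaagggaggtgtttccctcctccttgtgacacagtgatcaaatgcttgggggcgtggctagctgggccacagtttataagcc
Isg15, chr4:156200819-156201068 (-): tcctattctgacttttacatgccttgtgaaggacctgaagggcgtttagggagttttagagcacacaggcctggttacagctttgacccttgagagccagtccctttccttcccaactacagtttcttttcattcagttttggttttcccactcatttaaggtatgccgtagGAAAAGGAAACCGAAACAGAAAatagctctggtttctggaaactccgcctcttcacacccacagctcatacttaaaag
Gbp2, chr3:142620413-142620662 (+): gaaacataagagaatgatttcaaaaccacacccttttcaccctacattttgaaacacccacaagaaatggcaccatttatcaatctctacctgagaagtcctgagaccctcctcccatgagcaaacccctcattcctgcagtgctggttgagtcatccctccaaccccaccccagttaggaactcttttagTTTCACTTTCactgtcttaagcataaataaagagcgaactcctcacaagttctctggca

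The Ifit1 window holds 2 matches, Isg15 3 that overlap, and Rsad2 and Gbp2 1 each. Of all 32851 RefSeq windows of this length, 978 (2.98%) held a match on either strand, and of 8962 tested genes with a window, 298 (3.33%) did. In the interferon-stimulated list, 23 of 47 genes with a window (48.9%) held one. Among the genes whose difference was called higher for AG-221, 8 of 19 with a window (42.1%) did: Ifit1, Rsad2, Isg15, Gbp2, Tlr11, Gpr141b and 2 predicted genes. A match describes the letters of the window and is not a measurement of binding.

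Ifit1, which binds viral RNA that lacks cap methylation, read 2.95, 0.721 and 1.68 CPM in IDH2-FLT3 vehicle and 5.64, 6.62, 7.49 and 5.86 with AG-221. It read 46.9, 53.7, 25.6 and 25.8 CPM in vehicle of the TET2-FLT3 line and 11.7, 15.1, 10.4 and 10.9 with 5-Aza. Every AG-221 library was above every vehicle library of its line, and every 5-Aza library below its own vehicle. Groups without such overlap were found in 23.8% of all tested accessions for AG-221 and 7.09% for 5-Aza, and in opposite directions in 0.169%. Ifit1 rose with AG-221 (log2 fold change 1.87, SE 0.42, adjusted p = 0.0154) and fell with 5-Aza (-1.66, SE 0.36, adjusted p = 0.019), and the difference was 3.52 (SE 0.56, adjusted p = 0.014). Ifi44, an interferon-induced gene of the same program, read 2.02, 0.962 and 6.81 CPM in vehicle and 10.6, 6.31, 8.84 and 14.5 with AG-221, so that AG8 lay below V9. In the TET2-FLT3 line it read 227, 380, 195 and 140 CPM in vehicle and 39.2, 58.9, 32.1 and 50.5 with 5-Aza, without overlap. It rose by 1.64 (SE 0.49, adjusted p = 0.0414) with AG-221 and fell by 2.38 on the log2 scale (SE 0.43, adjusted p = 0.00575) with 5-Aza, a difference of 4.02 (SE 0.66, adjusted p = 0.014). Without V3-2 the AG-221 call was lost in Ifit1 (adjusted p = 0.0849) and Ifi44 (adjusted p = 0.199), and in Ifi44 also without V3 (adjusted p = 0.145) or AG13 (adjusted p = 0.0959). In both genes the AG-221 libraries stayed far below the wild-type means of 20 CPM (SD 5.39, n = 4) for Ifit1 and 83 CPM (SD 21.3, n = 4) for Ifi44.

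Rsad2 (viperin, an antiviral enzyme) read 3.46, 2.4 and 8.26 CPM in IDH2-FLT3 vehicle and 18.9, 14.9, 23.6 and 29.9 with AG-221. It read 30.8, 49.9, 30.4 and 36.1 CPM in vehicle of the TET2-FLT3 line and 12.3, 18.5, 14.1 and 16.1 with 5-Aza. Neither pair of groups overlapped, and the treated libraries of both lines met between 12.3 and 29.9 CPM. Rsad2 rose with AG-221 (log2 fold change 2.22, SE 0.45, adjusted p = 0.0101), its value with 5-Aza was -1.27 (SE 0.39, adjusted p = 0.116), and the difference was 3.49 (SE 0.59, adjusted p = 0.014). Gbp2, an interferon-induced GTPase, read 22.4, 24 and 28.2 CPM in vehicle and 47, 46.6, 51.6 and 71.9 with AG-221, then 86.3, 67.1, 50.6 and 54.8 in vehicle of the TET2-FLT3 line and 41.7, 41.3, 38.7 and 41.3 with 5-Aza. The groups did not overlap in either line. Gbp2 rose with AG-221 (1.12, SE 0.24, adjusted p = 0.0109), had -0.67 with 5-Aza (adjusted p = 0.139), and its difference was 1.79 (SE 0.32, adjusted p = 0.0166). Isg15, a ubiquitin-like modifier, read 5.57, 2.74 and 10.1 CPM in vehicle, 12.9, 13.4, 14.4 and 19.4 with AG-221, 70.5, 65.4, 39.9 and 32.6 in vehicle of the TET2-FLT3 line and 19.7, 23, 21.4 and 26.4 with 5-Aza. These groups did not overlap either, and the difference was 2.5 (SE 0.52, adjusted p = 0.0434).

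**Figure D2:**
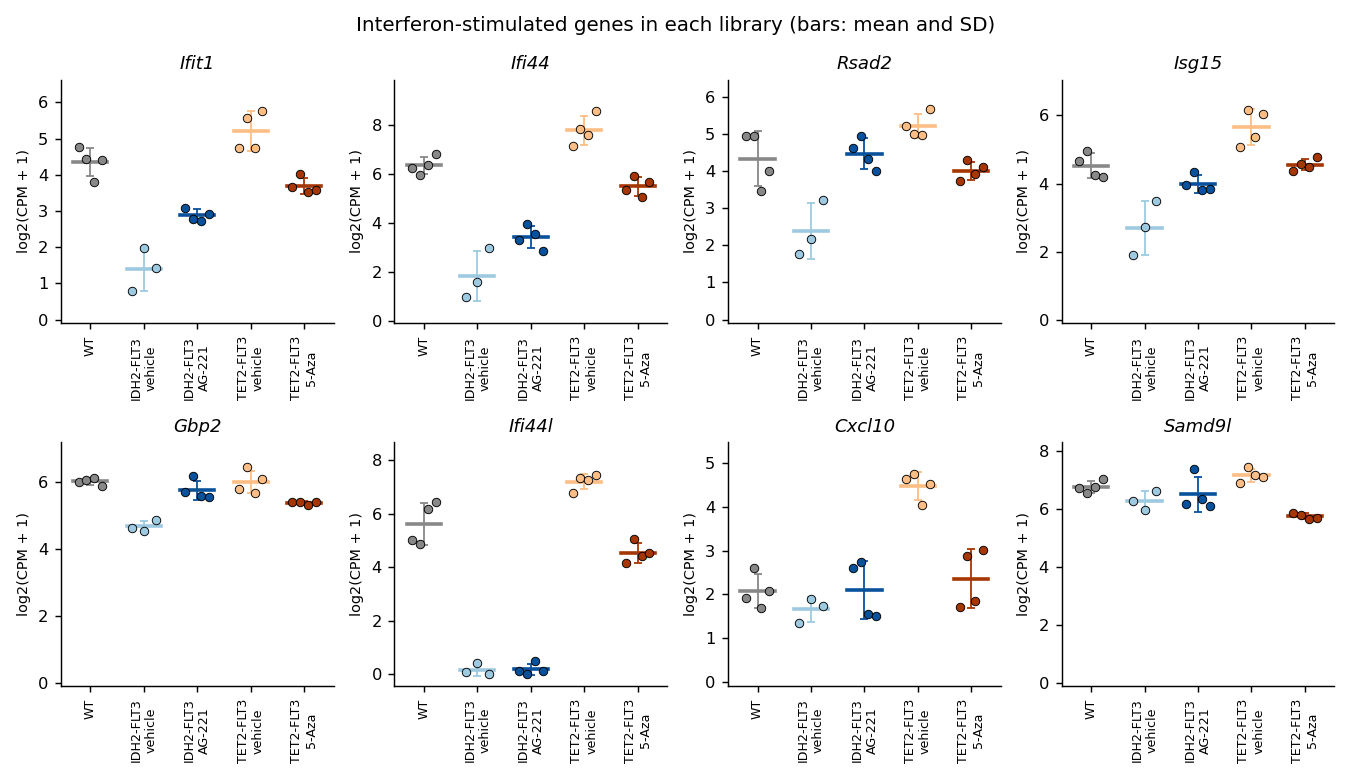
Each panel plots 1 gene as log2(CPM + 1) in every library of the 5 groups, with bars for the mean and SD. In the upper row and Gbp2 the AG-221 libraries lie above their vehicle and the 5-Aza libraries below theirs, apart from 1 overlap in Ifi44, while Ifi44l stays near 0 in the whole IDH2-FLT3 line.

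The interferon-stimulated list had 61 tested accessions. AG-221 raised 8 and lowered 0 of them, beside 4.39% and 5.29% of all tested accessions. 5-Aza raised 0 and lowered 11, beside 0.431% and 1.45%. The difference was called higher in 5 and lower in 0, beside 0.203% and 0.0254%. These shares are also the background for the lists below with all libraries fitted. Medians were 0.22 for AG-221, -0.9 for 5-Aza and 1.2 for the difference, against 0.00, -0.05 and 0.04 over all tested accessions. AG-221 values were mixed, positive in 36 of the 61, with 14 higher and 5 lower at an unadjusted p under 0.05. Over all tested accessions that level held 29.9% for AG-221 and 12.5% for 5-Aza, in either direction. These are also the background for unadjusted counts of the lists below. For AG-221, limma-voom called 7 higher and 3 lower. The difference was positive in 54 of the 61. At an unadjusted p under 0.05 it was higher in 33 and lower in 0. DESeq2 called 19 higher and 0 lower. Besides the 5 genes above, AG-221 raised Oasl2, Rtp4 and Ddx58 (RIG-I, a sensor of viral RNA). Ddx58 read 24.5, 21.8 and 25.9 CPM in vehicle and 58.8, 42.2, 63.7 and 43 with AG-221, without overlap, and its value with 5-Aza was -0.01 (adjusted p = 0.988). 5-Aza lowered Ifi44l, Cxcl10 and Samd9l among others. Cxcl10, a chemokine for T cells, read 26.2, 21.9, 15.4 and 23.9 CPM in vehicle of the TET2-FLT3 line and 2.26, 6.31, 2.58 and 7.04 with 5-Aza. Its difference of 2.99 (SE 0.69, adjusted p = 0.0672) missed the threshold, as did that of Samd9l at 1.73 (SE 0.38, adjusted p = 0.056), where AG13 alone was high at 167 CPM beside 67.4 to 80.5 in the other AG-221 libraries. The MHC class I presentation list of 18 accessions had no call in either response or in the difference by edgeR. At an unadjusted p under 0.05 the difference held 0 of them, and DESeq2 called 0. Without V3-2 AG-221 raised 0 of the interferon-stimulated list and without V3 it raised 1. The difference then held 0 and 1 calls, against 19 without V9. The fit without V9 called the difference higher in 510 of 12413 accessions and lower in 134. In that fit AG-221 raised 1111 and lowered 1141 accessions. These are the background for list counts without V9. The 5-Aza decrease held 6 calls without AZ10 or AZ16 and 7 without V5, and 6 to 23 over all alternatives run.

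Genes of conventional dendritic cells and of MHC class II presentation fell with 5-Aza. In the dendritic cell list, 5-Aza lowered 8 of 24 accessions and raised 0, with a median of -3.02. AG-221 raised 2 and lowered 2, with a median of 0.07. The difference was called in 1 of them, Itgae, with a median of 2.78. Of the 12 accessions of MHC class II presentation, 5-Aza lowered 5 (H2-Aa, H2-Ab1, H2-Eb1, H2-DMb1 and Cd74), and edgeR called none for AG-221 or for the difference. At an unadjusted p under 0.05 the difference was higher in 6 of these 12, and DESeq2 called 1. For AG-221, limma-voom called 0 higher and 4 lower of these 12, and 3 higher and 5 lower of the dendritic list. It called the difference higher in 0 of these 12 and in 2 of the dendritic list. Without V9 edgeR called the difference higher in 6 of the dendritic list and 4 of the MHC class II list. That fit called the difference higher in 510 of 12413 accessions. 5-Aza lowered 3 of the dendritic list without AZ16 and 4 without AZ10. It lowered 2 of the MHC class II list without AZ16 and 3 without AZ10, AZ11, AZ17 or V5.

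Itgae, the integrin chain CD103 of cross-presenting dendritic cells and tissue T cells, read 16.2, 13.4 and 91.6 CPM in IDH2-FLT3 vehicle and 6.85, 7.24, 10 and 153 with AG-221. It read 89.7, 55.5, 60 and 49.8 CPM in vehicle of the TET2-FLT3 line and 0.324, 0.243, 0.379 and 0.632 with 5-Aza, where wild-type cells had 0.511 (SD 0.064, n = 4). The 5-Aza libraries lay far below vehicle, while AG13 and V9 stood high in the IDH2-FLT3 line. The fall with 5-Aza was 7.32 on the log2 scale (-7.32, SE 1.06, adjusted p = 0.00199), the AG-221 value was 0.14 (SE 0.82, adjusted p = 0.928) and the difference was 7.45 (SE 1.36, adjusted p = 0.0187). Tlr11, a receptor for protozoan profilin used by dendritic cells, read 30.1, 30.6 and 85.9 CPM in vehicle and 3.32, 8.39, 7.75 and 93.1 with AG-221. In the TET2-FLT3 line it read 34.9, 100, 139 and 38.8 CPM in vehicle and 0.324, 0.889, 0.228 and 0.361 with 5-Aza. Again only AG13 was high with AG-221, and 5-Aza did not overlap vehicle. Tlr11 fell with 5-Aza (-7.41, SE 1.01, adjusted p = 0.00199), and its difference was 6.62 (SE 1.27, adjusted p = 0.03). Gpr141b, an orphan receptor, had the same pattern of libraries, with 99.6 CPM in AG13 and 1.81 to 11.4 in the others, and a difference of 6.73 (SE 1.39, adjusted p = 0.0434).

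Xcr1, the chemokine receptor that defines cross-presenting dendritic cells, read 50.3, 30.4 and 214 CPM in vehicle and 5.44, 23, 24.3 and 237 with AG-221, then 213, 263, 134 and 103 in vehicle of the TET2-FLT3 line and 1.05, 2.26, 3.57 and 1.98 with 5-Aza. It fell with 5-Aza by 6.32 on the log2 scale (SE 0.97, adjusted p = 0.00229), and its difference of 5.88 (SE 1.25, adjusted p = 0.0521) missed the threshold. H2-Eb1, an MHC class II beta chain, read 743, 543 and 2676 CPM in vehicle and 102, 320, 282 and 3773 with AG-221, then 2039, 2890, 2105 and 954 in vehicle of the TET2-FLT3 line and 24.3, 66, 35.4 and 89.8 with 5-Aza. AG13 lay above V9 in this gene, and the other AG-221 libraries lay below all vehicle libraries. H2-Eb1 fell with 5-Aza (-5.21, SE 0.92, adjusted p = 0.00521) and had a difference of 4.97 (SE 1.23, adjusted p = 0.0954). MHC genes share sequence, so reads may be split between relatives. In these genes a smaller share of cells of a type and less RNA per cell cannot be told apart in bulk RNA.

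The AG-221 value of these genes depended on AG13 and on the vehicle library V9. Without V9, AG-221 raised 4 of the dendritic list and lowered 2, with a median of 0.71. Of all 12413 accessions in that fit AG-221 raised 1111 and lowered 1141. AG-221 values were then 1.59 for Itgae, 0.85 for Xcr1, 0.82 for Batf3, 0.81 for H2-Eb1, -0.1 for Tlr11, -0.23 for Itgax and -1.57 for Mpeg1. None of these genes was called for AG-221 in that fit. Summed CPM of 5 dendritic markers (Siglech, Xcr1, Clec9a, Cd209a and Itgax, with Clec9a at 0 in all 15 libraries) ran from 74.1 to 308 in IDH2-FLT3 vehicle, from 13.1 to 442 with AG-221 with AG13 at the top, from 135 to 385 in vehicle of the TET2-FLT3 line and from 3.8 to 10 with 5-Aza. Without AG13, AG-221 lowered 7 of 23 tested accessions of the dendritic list and 5 of 12 of the MHC class II list, and raised 0 of either. In that fit Itgae turned to a fall of 2.32 (-2.32, adjusted p = 0.0215), Xcr1 had -2.47 (adjusted p = 0.0308), Tlr11 -2.9 (adjusted p = 0.0105), Batf3 -2.87 (adjusted p = 0.0279), Itgax -3.12 (adjusted p = 0.00901), Mpeg1 -3.17 (adjusted p = 0.00901) and H2-Eb1 -2.49 (adjusted p = 0.0259). Batf3 is the transcription factor that cross-presenting dendritic cells need, Itgax is CD11c and Mpeg1 is perforin-2. The median difference over the dendritic list was 1.08 without AG13. The difference of Itgae and Tlr11 was still called there, at adjusted p = 0.0211 and 0.023, while that of Xcr1 had 0.0797, Gpr141b 0.0689, Batf3 0.363 and H2-Eb1 0.185. The part of dendritic cells in these values was not tested.

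**Figure D3:**
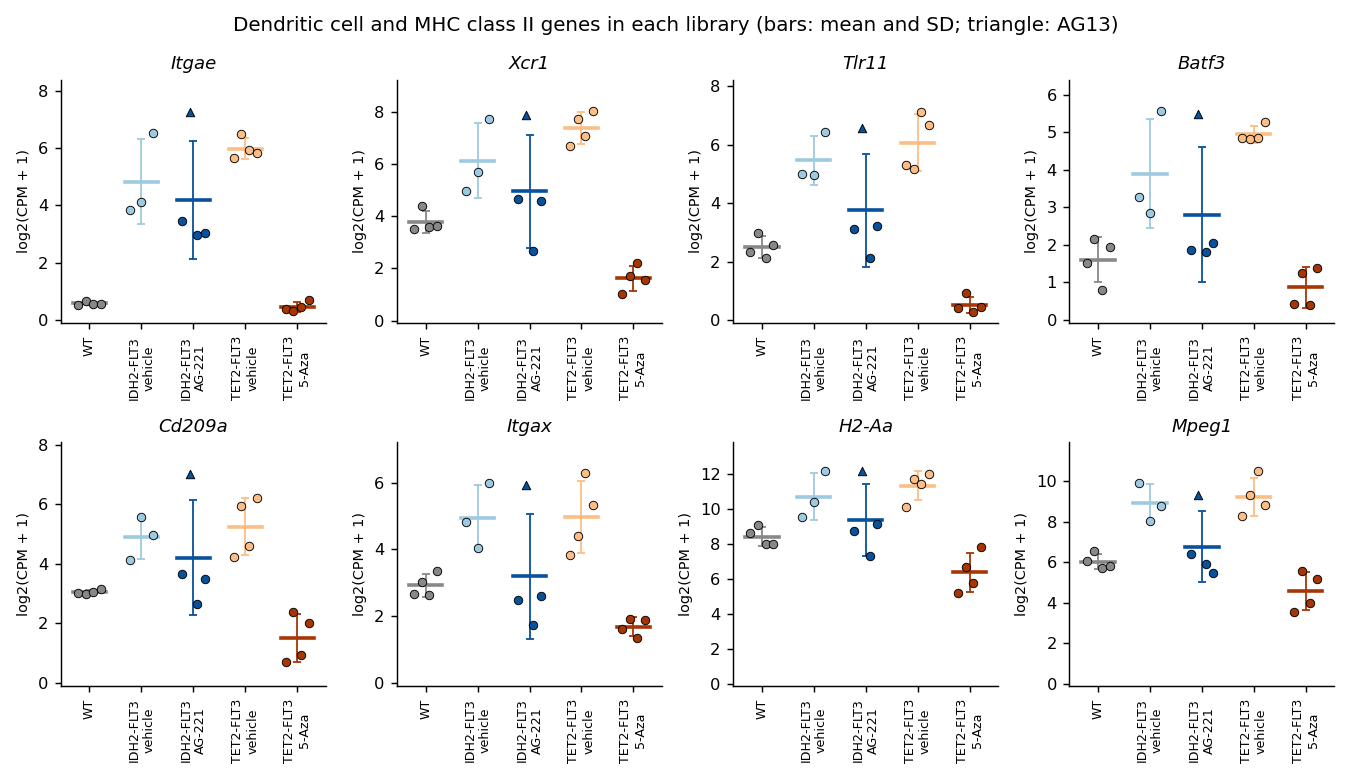
Each panel plots 1 gene as log2(CPM + 1) in every library, with bars for the mean and SD and a triangle for library AG13. The 5-Aza libraries lie below all TET2-FLT3 vehicle libraries in every panel, and AG13 lies apart from the other 3 AG-221 libraries. In Itgae and Cd209a AG13 lies above every vehicle library of both lines.

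Other genes of the difference were mainly higher with AG-221 and not called with 5-Aza. Ldhd, the mitochondrial D-lactate dehydrogenase, read 0.675, 0.481 and 2.33 CPM in IDH2-FLT3 vehicle and 16.6, 16.6, 8.17 and 9.96 with AG-221. It read 5.45, 9.93, 14 and 10.9 CPM in vehicle of the TET2-FLT3 line and 5.18, 7.92, 4.48 and 6.13 with 5-Aza. The IDH2-FLT3 vehicle libraries were thus low, and AG-221 libraries lay near the level of the TET2-FLT3 line and of wild type (7.47 CPM, SD 2.33, n = 4). Ldhd rose with AG-221 (log2 fold change 3.48, SE 0.55, adjusted p = 0.00277) and had a difference of 4.25 (SE 0.7, adjusted p = 0.014). Zfp532, a zinc finger protein, read 0.675, 1.11 and 2.41 CPM in vehicle and 8.76, 7.55, 6.99 and 6.94 with AG-221, against 10.8 to 19.8 in all 8 TET2-FLT3 libraries. It rose by 2.44 with AG-221 (SE 0.39, adjusted p = 0.00277), and the difference was 2.75 (SE 0.49, adjusted p = 0.0166). Bgn (biglycan, a matrix proteoglycan) read 1.26, 0.337 and 1.52 CPM in vehicle and 9.26, 11.6, 16.1 and 8.6 with AG-221, without overlap. It had a rise of 3.49 (SE 0.51, adjusted p = 0.00267), a 5-Aza value of 0.34 (adjusted p = 0.773) and a difference of 3.15 (SE 0.62, adjusted p = 0.0323).

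Ccl3 (MIP-1alpha, a chemokine that restrains stem cell cycling) moved in opposite directions. It read 7.67, 4.86 and 7.22 CPM in IDH2-FLT3 vehicle and 49.4, 16, 10.9 and 30.7 with AG-221, then 38.9, 28.8, 15.4 and 24.7 in vehicle of the TET2-FLT3 line and 1.38, 6.47, 0.607 and 4.24 with 5-Aza. No groups overlapped within a line. Ccl3 rose with AG-221 (2.02, SE 0.61, adjusted p = 0.0416), fell with 5-Aza (-3.08, SE 0.58, adjusted p = 0.00725) and had a difference of 5.11 (SE 0.85, adjusted p = 0.014). Akr1c12, an aldo-keto reductase with close relatives in its gene cluster that could share reads, read 5.14, 2.55 and 8.98 CPM in vehicle and 34.9, 42, 33.6 and 37.9 with AG-221. In the TET2-FLT3 line it read 108, 19.4, 14.7 and 38 CPM in vehicle and 8.82, 8.73, 6.98 and 22 with 5-Aza, where AZ17 overlapped vehicle. Its difference was 4.69 (SE 0.8, adjusted p = 0.0142). Of the remaining named genes called higher in the difference, Casp4 (an inflammatory caspase) had 1.81 (adjusted p = 0.0434), Trim34a 2.09 (adjusted p = 0.03), Serpini1 (neuroserpin) 2.61 (adjusted p = 0.0386), Cyp2j6 2.05 (adjusted p = 0.03) and Mageh1 2.99 (adjusted p = 0.03). All 5 of these rose with AG-221, and none was called with 5-Aza.

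Of the 3 genes called lower in the difference, Lgals1 was the most abundant. Lgals1 encodes galectin-1, a carbohydrate-binding protein. It read 985, 627 and 397 CPM in IDH2-FLT3 vehicle and 188, 140, 146 and 294 with AG-221, then 472, 326, 189 and 174 in vehicle of the TET2-FLT3 line and 628, 576, 639 and 908 with 5-Aza. Within each line the groups did not overlap, and the directions were opposite. Lgals1 fell with AG-221 (-1.8, SE 0.38, adjusted p = 0.0109), its value with 5-Aza was 1.25 (SE 0.35, adjusted p = 0.0816), and the difference was -3.05 (SE 0.52, adjusted p = 0.014). Slc16a11, a monocarboxylate transporter family member, read 0.337, 0.769 and 1.04 CPM in vehicle, 1.01, 0.154, 0 and 0 with AG-221, 0.136, 0.135, 0.492 and 1.54 in vehicle of the TET2-FLT3 line and 11.7, 17.1, 52.9 and 30.9 with 5-Aza, where wild type had 43.7 (SD 22.4, n = 4). Only the 5-Aza libraries were above 1.54 CPM among the leukemic ones. It rose with 5-Aza (5.61, SE 0.84, adjusted p = 0.00229), and the difference was -6.97 (SE 1.24, adjusted p = 0.0166). Cdr2, an onconeural antigen, fell with AG-221 from 3.2, 6.44 and 1.44 CPM to 0, 0.154, 0.0842 and 0.0977, and its difference was -6.15 (SE 1.04, adjusted p = 0.014).

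Mast cell and basophil genes held no call of the difference, with Fcer1a nearest to it. Fcer1a, the alpha chain of the IgE receptor, read 44.1, 18.2 and 2.89 CPM in IDH2-FLT3 vehicle and 4.03, 12.2, 5.64 and 7.42 with AG-221, then 1.09, 1.62, 0.861 and 1.92 in vehicle of the TET2-FLT3 line and 12.2, 4.12, 17.8 and 8.12 with 5-Aza. It rose with 5-Aza (2.94, SE 0.69, adjusted p = 0.0289), overlapped with AG-221, and its difference of -4.51 (SE 0.96, adjusted p = 0.0524) missed the threshold. Hdc, which makes histamine, fell with AG-221 (-3.19, SE 0.64, adjusted p = 0.00913) from 359, 307 and 29.3 CPM to 19.7, 19.3, 46.6 and 15.8, with AG12 above V9, and its difference was -3.01 (adjusted p = 0.123). In the list of 17 mast, basophil and eosinophil accessions edgeR called 0 differences, with 0 higher and 4 lower at an unadjusted p under 0.05 and 3 lower by DESeq2.

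Stem cell genes rose with AG-221, but their differences missed the threshold. In the stem cell list of 21 accessions AG-221 raised 8 and lowered 0, with a median of 1.79, and 5-Aza raised 1 and lowered 1, with a median of 0.06. The difference was positive in 20 of 21, with a median of 1.49, and edgeR called 0 of them. At an unadjusted p under 0.05 it was higher in 8, and DESeq2 called 4 higher. Procr (EPCR, a surface marker of stem cells) read 3.04, 3.89 and 13.6 CPM in IDH2-FLT3 vehicle and 37.1, 43, 27 and 34.7 with AG-221, against 32.8 to 55.6 in all 8 TET2-FLT3 libraries. It rose with AG-221 (2.38, SE 0.4, adjusted p = 0.00338), and its difference was 2.32 (SE 0.51, adjusted p = 0.056). Hlf, a transcription factor of stem cells, read 18.5, 14.9 and 63.2 CPM in vehicle and 442, 189, 388 and 199 with AG-221, then 150, 162, 121 and 332 in vehicle of the TET2-FLT3 line and 593, 385, 422 and 305 with 5-Aza. V9 was the highest vehicle library in both genes, and the AG-221 libraries did not overlap vehicle. Hlf rose with AG-221 (3.25, SE 0.52, adjusted p = 0.00277), its 5-Aza value was 1.16 (adjusted p = 0.237) and its difference was 2.09 (adjusted p = 0.151). Without V3 or without V3-2 AG-221 raised 3 of the stem cell list, and without AG8 or AG12 it raised 5. Without V9 the difference was called in 10 of the list, Procr (adjusted p = 3.64e-05) and Hlf (adjusted p = 0.00338) among them. That fit called the difference higher in 510 of 12413 accessions.

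Of 16 Hox cluster accessions AG-221 raised 4 and lowered 0, with a median of 1.55, and 5-Aza changed 0, with a median of 0.17. Without V3 or without V3-2 AG-221 raised 1 of them. At an unadjusted p under 0.05, 5-Aza held 1 higher, and DESeq2 called 0. Hoxb5 read 0.675, 0.337 and 0.641 CPM in vehicle and 14.8, 2.23, 3.7 and 9.96 with AG-221, and its difference was 3.2 (SE 0.81, adjusted p = 0.0971). T and NK cell genes also rose, 9 of 22 with AG-221, at low levels. Cd3e, a chain of the T cell receptor complex, read 0, 0 and 0.0802 CPM in vehicle and 0.403, 1.08, 1.68 and 0.293 with AG-221, beside 4.04 in wild type (SD 1.77, n = 4). A lin- gate is meant to remove T cells, and the part of T cells in the AG-221 values was not tested. 5-Aza changed 0 of the 22 by edgeR, with 1 higher and 2 lower at an unadjusted p under 0.05 and 1 lower by DESeq2, and the difference held 0 calls, with 9 higher unadjusted and 3 by DESeq2. Without V3 or without V3-2 AG-221 raised 0 of the T and NK cell list, and without AG12 or AG13 it raised 3.

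**Figure D4:**
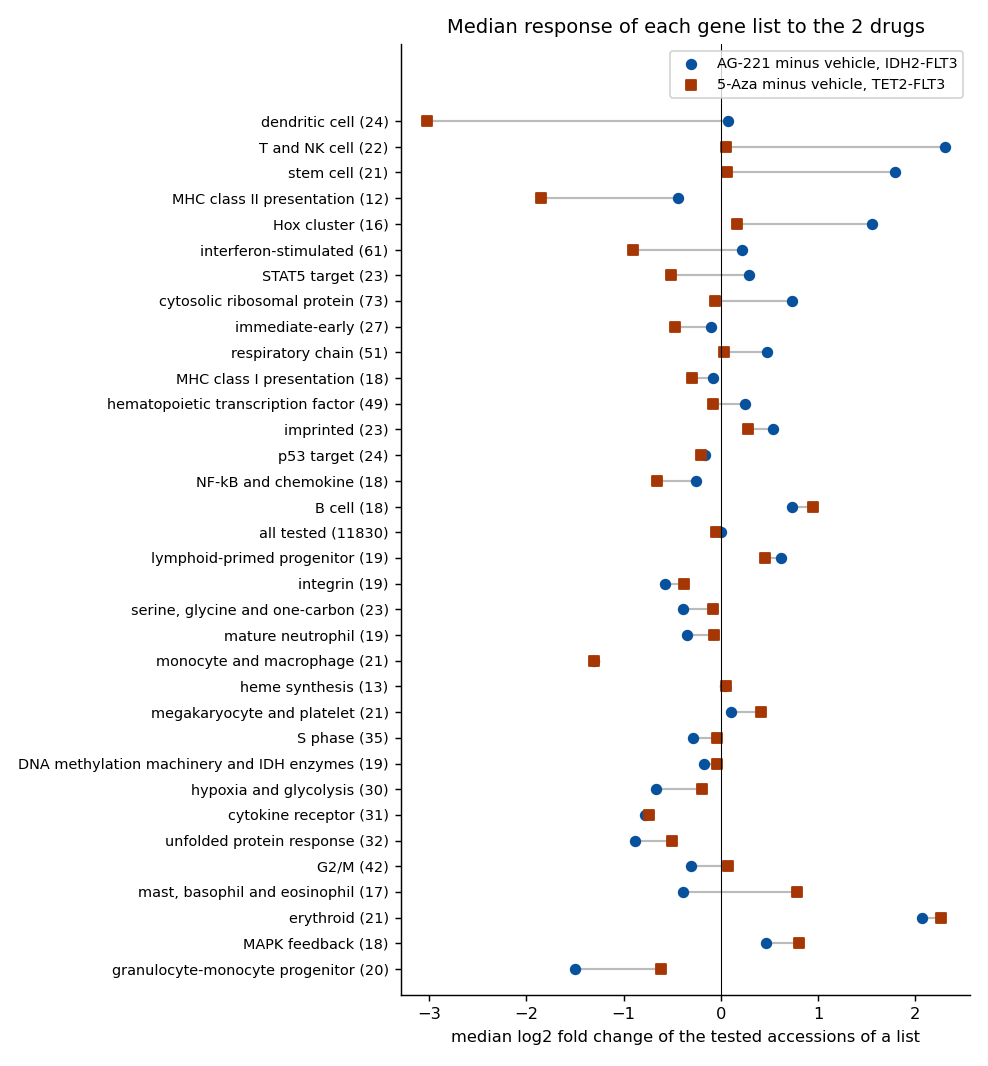
For each gene list with at least 10 tested accessions (number in brackets), the circle is the median log2 fold change with AG-221 and the square that with 5-Aza, ordered by the median difference. Dendritic cell genes have medians of 0.07 and -3.02, stem cell genes 1.79 and 0.06, and erythroid genes 2.07 and 2.26.

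Responses shared by both drugs were read in 3 ways. Both tests called 43 accessions (0.363%), of which 39 (0.33%) had the same direction, 16 higher (0.135%) and 23 lower (0.194%). These 39 are 3.41% of the AG-221 calls and 17.6% of the 5-Aza calls. The other 4, Ifit1, Ifi44, Ccl3 and 1 predicted gene, were higher with AG-221 and lower with 5-Aza (0.0338%), and 0 had the reverse. The stricter shared test, which adjusts the larger of the 2 p-values over all accessions, called 0 by edgeR. Its smallest adjusted p was 0.11, it held 511 (4.32%) at an unadjusted p under 0.05, and DESeq2 called 14 (0.118%). Without AG13 the shared test called 19, and without V9 it called 3. The mean of both responses passed for 1369 accessions (11.6%), 504 higher (4.26%) and 865 lower (7.31%), with 29.0% at an unadjusted p under 0.05, and a mean can pass through 1 response alone. It passed for 883 higher and 467 lower on the log2(FPKM + 1) scale, and in all for 623 without V3-2, 2239 without V1 and 2356 without V9.

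Some erythroid genes rose with each drug. Of 21 tested accessions AG-221 raised 7 and lowered 1, 5-Aza raised 9 and lowered 0, and the mean of both was raised in 15 and lowered in 1. Medians were 2.07 and 2.26, and 20 of the 21 had the same sign. AG-221 raised 2 without V3 or V3-2, 3 without AG12 or AG13 and 4 without AG8, and 5-Aza raised 3 without AZ16, V5 or V5-2 and 5 without AZ10, AZ17 or V1. With the leukemic libraries alone AG-221 raised 2 and 5-Aza 4, and the mean was raised in 13. edgeR called 0 differences, with 1 higher and 2 lower at an unadjusted p under 0.05 and 1 each way by DESeq2. Cldn13, a claudin of erythroid progenitors in mice, read 0.169, 0.0962 and 0.321 CPM in IDH2-FLT3 vehicle and 1.01, 1.46, 3.03 and 4.49 with AG-221. It read 0.136, 0.0675, 0.123 and 0.288 CPM in vehicle of the TET2-FLT3 line and 3.4, 4.12, 10.7 and 5.41 with 5-Aza, beside 18.1 in wild type (SD 2.73, n = 4). Treated and vehicle libraries did not overlap in either line, and all stayed below wild type. Cldn13 rose by 3.68 with AG-221 (SE 0.66, adjusted p = 0.00458) and by 5.25 with 5-Aza (SE 0.62, adjusted p = 0.000498), and the difference was -1.58 (SE 0.91, adjusted p = 0.412). Rhd and Ermap, blood group proteins, also rose with both. Summed CPM of 6 erythroid markers ran from 1.18 to 3.53 in IDH2-FLT3 vehicle, 2.42 to 13.6 with AG-221, 0.902 to 4.7 in vehicle of the TET2-FLT3 line and 12.3 to 27.4 with 5-Aza, with Hbb-b1 and Hba-a1 at 0 in all 15. These globins have near-identical copies that can lose reads, and the part of erythroid cells was not tested. Gata1, the erythroid and megakaryocyte transcription factor, rose with 5-Aza (3.37, SE 0.53, adjusted p = 0.00243) from 1.09, 2.43, 2.38 and 1.25 CPM to 26, 12.3, 28.5 and 9.47. With AG-221 it had 0.72 (adjusted p = 0.364), and the difference of -2.65 (SE 0.72, adjusted p = 0.112) missed the threshold.

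Gata2, a transcription factor of stem and early myeloid cells, read 47.9, 85.3 and 48.7 CPM in IDH2-FLT3 vehicle and 165, 118, 143 and 95.7 with AG-221, then 46.9, 49.7, 63.9 and 103 in vehicle of the TET2-FLT3 line and 255, 142, 190 and 107 with 5-Aza. No groups overlapped within a line. It rose by 1.1 with AG-221 (SE 0.32, adjusted p = 0.0383) and by 1.4 with 5-Aza (SE 0.3, adjusted p = 0.0162), towards the wild-type mean of 211 CPM (SD 12, n = 4). Gp9, a platelet glycoprotein, read 4.38, 2.98 and 10.2 CPM and 11.5, 28.3, 19.6 and 15.1 in the IDH2-FLT3 line, and 6.55, 8.84, 5.58 and 9.6 and then 21.9, 18.9, 30.4 and 27.2 in the TET2-FLT3 line. Its rises were 1.68 (adjusted p = 0.0182) and 1.69 (adjusted p = 0.0162), with a difference of -0.01 (SE 0.54, adjusted p = 0.998). Slamf1 (CD150, a marker of stem cells) rose by 3.56 with AG-221 (adjusted p = 0.0214), where AG13 at 0.293 CPM overlapped vehicle, and by 3.38 with 5-Aza (adjusted p = 0.0173). Car3, a carbonic anhydrase, rose by 1.32 (adjusted p = 0.0323) and 2.05 (adjusted p = 0.00319). Of 18 feedback targets of MAPK signalling, which FLT3 activates, AG-221 raised 1 and lowered 1, or 11.1% beside 9.68% of all tested accessions. 5-Aza raised 3 and lowered 0, or 16.7% beside 1.88%. Medians were 0.46 and 0.8, with a median difference of -0.91. The mean of both responses was raised in 6 and lowered in 0. Without V3 or V3-2 AG-221 raised 0 and lowered 0, and 5-Aza raised 0 without AZ10 or AZ16, 1 without V1, V5, V5-2 or V19, and 5 without AZ11 or AG13. Dusp6, a phosphatase that ends ERK signals, rose with 5-Aza (2.18, SE 0.52, adjusted p = 0.0297), though AZ17 at 10.6 CPM lay with vehicle, and had 1.58 with AG-221 (adjusted p = 0.0726).

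**Figure D5:**
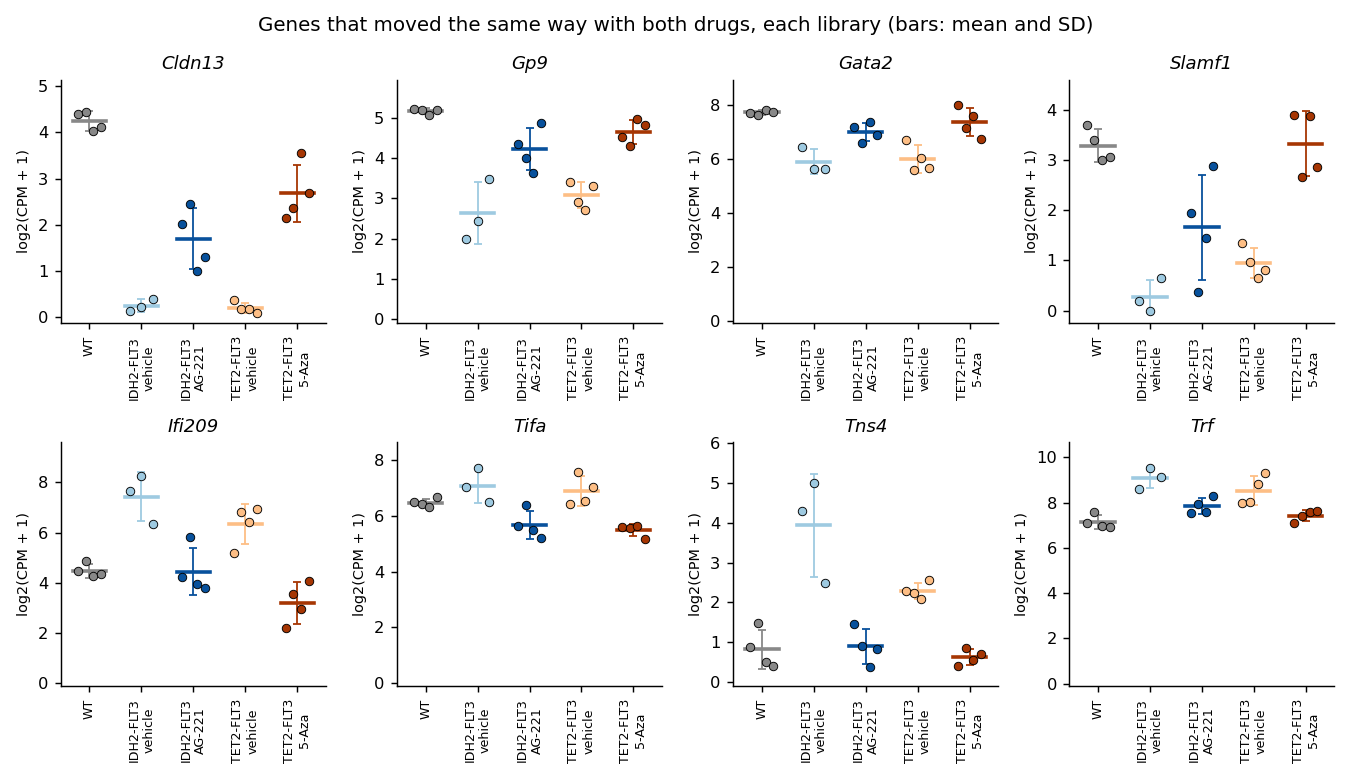
Each panel plots 1 gene called in both responses as log2(CPM + 1) in every library, with bars for the mean and SD. Cldn13, Gp9, Gata2 and Slamf1 are higher with both drugs and Ifi209, Tifa, Tns4 and Trf lower, with overlap of vehicle and treated libraries only for Slamf1 with AG-221.

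Among the 23 genes called lower with both drugs was Ifi209. Ifi209, a member of the interferon-inducible DNA-binding p200 family whose members share sequence, read 308, 202 and 81.1 CPM in IDH2-FLT3 vehicle and 14.4, 12.9, 17.7 and 55.7 with AG-221. It read 112, 122, 84.4 and 35.2 CPM in vehicle of the TET2-FLT3 line and 3.56, 10.8, 6.83 and 16.1 with 5-Aza. Neither line had overlap, as in 164 accessions (1.39%) with 1 direction in both lines, and AG13 was again the highest AG-221 library. Ifi209 fell by 2.97 on the log2 scale with AG-221 (SE 0.56, adjusted p = 0.00626) and by 3.25 with 5-Aza (SE 0.55, adjusted p = 0.00321), with a difference of 0.28 (SE 0.74, adjusted p = 0.88). Tifa, an adaptor of innate NF-kB signalling, read 211, 132 and 88.8 CPM and then 44.1, 36.2, 48.7 and 82.6 in the IDH2-FLT3 line, and 190, 130, 91.3 and 84.4 and then 47.9, 46.2, 48.9 and 35.2 in the TET2-FLT3 line. It fell by 1.45 (adjusted p = 0.0142) and 1.47 (adjusted p = 0.0145). Tns4 (a focal adhesion protein) fell with AG-221 from 31.2, 18.7 and 4.65 CPM to 0.302, 0.77, 1.77 and 0.879, and with 5-Aza from 3.68, 4.93, 3.28 and 3.84 to 0.324, 0.808, 0.455 and 0.632. Pik3cb (a PI3-kinase catalytic subunit), Cln8 (an endoplasmic reticulum protein of lysosomal biogenesis), Ctsh (cathepsin H), Pld4, Trf (transferrin) and Itgb2 (the beta chain of leukocyte integrins) also fell with both. The difference missed the threshold in each of these 6, with standard errors from 0.31 for Cln8 to 0.88 for Pld4. Without V3-2 the AG-221 call was lost in Pik3cb (-1.24, adjusted p = 0.206), Ctsh, Pld4 and Itgb2. Without V3 it was lost in Cln8, Ctsh, Pld4, Trf and Itgb2. In Pld4 AG13 stood apart at 250 CPM among the AG-221 libraries. In Pik3cb V5-2 stood high at 58 CPM among its vehicle libraries.

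Some monocyte genes fell with each drug, and calls in the granulocyte-monocyte progenitor and unfolded protein response lists came mainly from AG-221, with no difference called in any of these lists. Of 21 monocyte and macrophage accessions AG-221 lowered 7 and raised 3, 5-Aza lowered 2 and raised 0, and their medians were -1.31 and -1.3. Unadjusted, 4 were higher and 9 lower with AG-221 at p under 0.05, beside 29.9% of all tested accessions in either direction. With 5-Aza 0 were higher and 12 lower at that level, beside 12.5%. Without V3 AG-221 lowered 2 and raised 0, without V3-2 it lowered 4 and raised 0, and without AG1 or AG12 it lowered 4. The 5-Aza count was 1 without AZ16 and 4 without AZ17, AG13 or V9. The 3 that rose were C1qa, C1qb and C1qc, complement genes of macrophages. C1qa read 0, 0.24 and 0.16 CPM in vehicle and 0.403, 5.62, 2.53 and 33.5 with AG-221, with AG13 the highest. Csf1r, the receptor of the monocyte growth factor, read 491, 511 and 60.9 CPM in vehicle and 18.6, 15.5, 19.8 and 19.4 with AG-221, then 22.1, 63.8, 87.2 and 26.5 in vehicle of the TET2-FLT3 line and 9.3, 27.8, 7.74 and 23.9 with 5-Aza. The vehicle libraries V3 and V3-2 stood far above the rest. Csf1r fell with AG-221 (-4.27, SE 0.63, adjusted p = 0.00267), and its difference was -2.73 (SE 0.8, adjusted p = 0.133). Cx3cr1, the fractalkine receptor, fell with AG-221 (-3.08, SE 0.42, adjusted p = 0.00264) and had -1.44 with 5-Aza (adjusted p = 0.0647).

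Among 20 granulocyte-monocyte progenitor accessions AG-221 lowered 8 and raised 0, with a median of -1.5. It lowered 2 without V3, 3 without V3-2, 5 without AG1, AG8 or AG13 and 13 without V9. 5-Aza changed 0, with a median of -0.62, with 2 lower at an unadjusted p under 0.05 and 1 by DESeq2. Mpo, the myeloperoxidase of azurophil granules, read 62762, 37307 and 11046 CPM in IDH2-FLT3 vehicle and 2877, 4434, 5885 and 1806 with AG-221, then 2163, 6278, 5305 and 2213 in vehicle of the TET2-FLT3 line and 2070, 2309, 2662 and 1902 with 5-Aza. Only the IDH2-FLT3 vehicle libraries were above 6278 CPM. Mpo fell with AG-221 (-3.3, SE 0.65, adjusted p = 0.00867), and its difference was -2.47 (SE 0.85, adjusted p = 0.194). In the unfolded protein response list of 32 accessions AG-221 lowered 9 and raised 0, and 5-Aza lowered 1 and raised 0, with medians of -0.88 and -0.5. AG-221 lowered 1 without V3-2, 3 without V3, 4 without AG12 and 5 without AG1, AG8 or AG13, and the 5-Aza count was 0 without AZ10, AZ16 or AZ17. Atf6, a sensor of misfolded protein, fell with AG-221 (-1.33, SE 0.22, adjusted p = 0.00338) and had -0.34 with 5-Aza (adjusted p = 0.524). edgeR called 0 differences in the monocyte, progenitor and unfolded protein response lists. Unadjusted, they held 6 higher and 2 lower, 1 higher and 7 lower, and 2 higher and 5 lower in that order, and DESeq2 called 3 higher and 1 lower, 1 lower, and 1 higher.

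Idh2, Tet2, Flt3 and Id1 passed none of these tests with all libraries fitted. Idh2 read 153, 544 and 237 CPM in IDH2-FLT3 vehicle and 273, 123, 204 and 154 with AG-221, then 403, 183, 526 and 274 and 307, 258, 229 and 360 in the TET2-FLT3 line, with overlap in both. Its values were -0.72 (adjusted p = 0.213) with AG-221 and -0.26 (adjusted p = 0.819) with 5-Aza, and the R140Q allele does not change what these counts measure. Tet2 read 36.4 to 156 CPM in the 8 TET2-FLT3 libraries and 90.2 to 188 in the 7 IDH2-FLT3 libraries. Reads outside a deleted part still count, so Tet2 does not check the genotype. The difference was 0.34 (adjusted p = 0.74) for Tet2, 1.75 (adjusted p = 0.196) for Flt3 and 0.48 (adjusted p = 0.683) for Id1, an inhibitor of differentiation. Of 26 alternatives, Flt3 was called for AG-221 in 2 and for the difference in 1. Without V9 its AG-221 value was 1.6 (adjusted p = 0.0298) and its difference 2.36 (adjusted p = 0.0285). The maintenance methyltransferase Dnmt1, the target of 5-Aza, was not among the tested accessions.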

How the data were processed

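RNA of sorted cells was sequenced with the SMARTer Ultra Low Input kit, per the labels' protocols. Reads were aligned to mm9 with STAR 2.4.0f1 and counted with featureCounts of Subread 1.4.5-p1, per the submitters' processing notes. The deposited counts are raw, per RefSeq accession, and the deposited FPKM values were used only as an alternative, tested with limma on log2(FPKM + 1) and log2(FPKM + 0.1). The strand setting of the counting is not given in the sources used here, so overlapping genes may share reads.

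Each column was assigned to its group from the header, which holds no replicate number of the titles. CPM used library totals scaled by TMM factors. edgeR 4.0.16 in R 4.3.3 fitted 5 group means to 19 libraries (filterByExpr, quasi-likelihood), and Benjamini-Hochberg adjustment ran over 11830 accessions with a threshold of 0.05. Contrasts were each response, their difference, their mean and the larger p of both (shared test). DESeq2 1.42.0, limma-voom (limma 3.58.1), other filters and scalings and leaving out each library were alternatives. The scripts were tested on simulated data.

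Members and lists were chosen with earlier results of these data known. Named genes came from a rule: set targets, up to 12 per direction for the difference and up to 8 per direction for the shared test and the mean by smallest p at a mean of 5 CPM or more, and up to 4 per list with 2 or more calls, leaving out predicted genes. It gave 140 genes, of which those printed were picked after their values were seen. Outside it, and named after their values were seen, are Isg15, Ifi44l, Samd9l, Oasl2, Rtp4, Ddx58, Trim34a, Casp4, Gpr141b, Batf3, Ccr2, Serpini1, Cdr2, Cd3e, C1qa, C1qb, Rhd, Slamf1, Dusp6, Ctsh, Pld4, Itgb2, Hyou1, H2-DMb1 and the markers Cd34 and Siglech. Promoter windows came from RefSeq on GRCm38.p6, matched by symbol. Of 35 gene lists, those with the clearest counts or the most direct bearing on the drugs are described.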

Additional observations from a re-analysis of the deposited data

Results flagged for a closer look

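In 21 named genes the responses to the drugs differed by the test of the difference itself. The AG-221 response was the higher one, on the log2 scale, by 3.52 in Ifit1, 4.02 in Ifi44, 3.49 in Rsad2, 1.79 in Gbp2, 2.50 in Isg15, 2.09 in Trim34a and 1.81 in Casp4. It was higher by 7.45 in Itgae, 6.62 in Tlr11 and 6.73 in Gpr141b. It was higher by 5.11 in Ccl3, 4.25 in Ldhd, 4.69 in Akr1c12, 2.75 in Zfp532, 2.05 in Cyp2j6, 2.99 in Mageh1, 3.15 in Bgn and 2.61 in Serpini1. The difference was -3.05 in Lgals1, -6.97 in Slc16a11 and -6.15 in Cdr2.

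A library far from the others of its group was found in 33 of 234 groups tested with Dixon's criterion. Chance gives about 1 in 20 only for independent groups of genes that were not selected. The genes tested were those printed, picked after their values were seen, and several share a pattern of libraries. The 33 therefore cannot be compared with that rate, and neither can the count of any single library. The IDH2-FLT3 vehicle group, with 3 libraries, was not tested, so these counts say nothing about V3, V3-2 and V9. AG13 accounted for 16 of the 33, all high. In CPM it read 167 for Samd9l, 153 for Itgae, 237 for Xcr1, 93.1 for Tlr11, 99.6 for Gpr141b, 44 for Batf3, 130 for Cd209a, 60 for Itgax, 4625 for H2-Aa, 3572 for H2-Ab1, 3773 for H2-Eb1 and 635 for Mpeg1. It also read 643 for Ccr2, 33.5 for C1qa, 55.7 for Ifi209 and 250 for Pld4.

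In the other AG-221 libraries, AG8 was high in Cyp2j6 at 61.4 CPM, AG1 in Slc16a11 at 1.01 and Id1 at 72.8, and AG12 in Hdc at 46.6 and Prtn3 at 2011. In TET2-FLT3 vehicle, V1 was low in Ddx58 at 39.5 CPM and high in Ncr1 at 0.409, and V5 was high in Batf3 at 38.1. V5-2 was high in Pik3cb at 58 CPM and Hyou1 at 345, and low in Id1 at 27.2. V19 was high in Cd3e at 0.288 CPM and Rhd at 3.17, and low in Cln8 at 45.3. With 5-Aza, AZ16 was low in Gbp2 at 38.7 CPM and high in Itgb2 at 55.3, and AZ17 was high in Akr1c12 at 22.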

How the results depend on the processing

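Counts of calls depended on the tool and on single libraries, and the causes were not tested. For the difference (27) they were 185 with no filter, 44 with a stricter filter, 0 with leukemic libraries alone, 364 with DESeq2, 92 with limma-voom, 45 on log2(FPKM + 1) and 98 on log2(FPKM + 0.1). Added after the data were seen, the -2 libraries summed with their namesakes gave 14, and leaving out V1 and both -2 libraries gave 13. For AG-221 (1145) they were 311 with leukemic libraries alone, 2108 with DESeq2, 1832 with limma-voom, 265 without both -2 libraries, 197 with those summed and 716 without V1 as well. For 5-Aza (222) they were 118 with leukemic libraries alone, 462 with DESeq2 and 61 without V1 and both -2 libraries. For the mean (1369) they were 731, 2066, 548, 807 and 568 with leukemic libraries alone, DESeq2, no -2 libraries, those summed and V1 left out too. The shared test (0) gave 3 with no filter, 14 with DESeq2, 3 with limma-voom, 1 on log2(FPKM + 1) and 2 on log2(FPKM + 0.1).

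Leaving out 1 library gave 0 to 644 calls for the difference, 97 to 2252 for AG-221, 57 to 302 for 5-Aza, 623 to 2356 for the mean and 0 to 19 for the shared test. The AG-221 value of Itgae ran from -2.32 without AG13 to 1.59 without V9. On log2(FPKM + 0.1), AG-221 gave 1091 higher and 299 lower, and the median over all accessions moved to 0.11. Of 6063 alternatives for single genes, 5339 stayed on the same side of the threshold (121 of these, with no call, changed sign), 543 lost the call, 180 gained it and 1 reversed. The 21 named genes of the difference lost their call in 164 of 544.

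No paired analysis was possible because the table's columns carry none of the replicate numbers in the titles. Intervals of low genes are wide, and depth limits values near 0 CPM.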
